A study of Rattus norvegicus with 6 samples.

Results

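Neurotrophic ligands and their receptors were followed here as a set of 8 genes named in advance: the ligands Bdnf, Ntf3 and Igf1, the secreted granule protein gene Vgf, and the receptors Ntrk2, Ntrk3, Gfra1 and Gfra2. They were found by gene symbol, and 7 of the 8 had a row of their own in each of the 6 libraries. No row carries the symbol Gfra1, which was not analysed here. Of these 7 genes 6 reached a mean of 1 FPKM over the libraries and were tested among 10657 genes, and Ntf3 lay below that filter. FPKM is a level per length: sequenced fragments scaled by the length of the transcript and by the size of the library. No other gene shared a row with any of the 7 genes.

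The study compared 3 untreated rats (replicates 1, 2 and 3) with 3 rats given cranial osteopathic manipulation (COM, replicates 4, 5 and 6), a manual treatment of the head. All were male F344 rats 18 months old, with no transgene named in the labels, and treatment ran for 7 days. Both groups were anaesthetised, the treated rats with 1.5 to 3% isoflurane. RNA came from tissue labelled prefrontal cortex, a coronal section 1 mm thick, with 1 library from each animal, and the title of the series concerns cholinergic pathway genes in age-related cognitive decline.

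Neurotrophins are small secreted proteins that keep neurons alive and tune synapses. Each binds a receptor tyrosine kinase of the Trk family: brain-derived neurotrophic factor (Bdnf) binds TrkB, encoded by Ntrk2, and neurotrophin 3 (Ntf3) binds TrkC, encoded by Ntrk3. The GDNF family signals in another way, through a lipid-anchored receptor (Gfra1 for GDNF, Gfra2 for neurturin) that joins the kinase Ret. Insulin-like growth factor 1 (Igf1) acts through the kinase Igf1r and is held in tissue by binding proteins. In cortex Bdnf is made mainly by excitatory neurons in response to activity, Igf1 by some interneurons and by microglia, and the product of Vgf is stored in dense-core granules and cut into peptides.

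Transcription of Bdnf and Vgf is known to respond to CREB, a factor that binds the cAMP response element, TGACGTCA. The core of this element is TGACG. RefSeq windows of 250 bases before to 50 bases after a start site (build GRCr8) were matched by symbol for 5 of the 8 genes, with 6 windows for Bdnf, 3 for Ntf3 and 1 each for Vgf, Igf1 and Gfra1. They were searched on both strands for the core and for the whole element, a palindrome that holds 2 overlapping copies of the core. Windows are shown for the ligands whose values are described first and for Vgf, which is compared with them. Of the 6 Bdnf windows the fourth is shown, and it alone held the core. Shown are the fourth Bdnf window, the Vgf window, the Igf1 window and the first Ntf3 window. They are chr3:116637608-116637907 on the plus strand, chr12:25276971-25277270 on the minus strand, chr7:24172282-24172581 on the plus strand and chr4:160670574-160670873 on the minus strand. Capitals mark the core, which reads CGTCA where it lies on the opposite strand.
Bdnf: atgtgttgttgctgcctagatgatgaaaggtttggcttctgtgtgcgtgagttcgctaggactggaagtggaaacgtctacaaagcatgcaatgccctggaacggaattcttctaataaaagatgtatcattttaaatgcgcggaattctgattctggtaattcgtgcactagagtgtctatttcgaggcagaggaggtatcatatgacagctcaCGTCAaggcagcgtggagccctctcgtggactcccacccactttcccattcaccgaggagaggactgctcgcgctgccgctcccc
Vgf: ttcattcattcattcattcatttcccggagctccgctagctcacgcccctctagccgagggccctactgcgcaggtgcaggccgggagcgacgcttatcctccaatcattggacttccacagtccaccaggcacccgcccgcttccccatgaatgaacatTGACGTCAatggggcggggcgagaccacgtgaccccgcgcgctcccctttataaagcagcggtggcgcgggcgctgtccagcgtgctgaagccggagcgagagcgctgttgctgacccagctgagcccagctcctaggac
Igf1: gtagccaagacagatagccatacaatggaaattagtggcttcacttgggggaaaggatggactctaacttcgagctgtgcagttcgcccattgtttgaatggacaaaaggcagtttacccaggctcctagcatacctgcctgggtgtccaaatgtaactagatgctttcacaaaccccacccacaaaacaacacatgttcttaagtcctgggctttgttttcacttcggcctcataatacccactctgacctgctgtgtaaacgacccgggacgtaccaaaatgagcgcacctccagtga
Ntf3: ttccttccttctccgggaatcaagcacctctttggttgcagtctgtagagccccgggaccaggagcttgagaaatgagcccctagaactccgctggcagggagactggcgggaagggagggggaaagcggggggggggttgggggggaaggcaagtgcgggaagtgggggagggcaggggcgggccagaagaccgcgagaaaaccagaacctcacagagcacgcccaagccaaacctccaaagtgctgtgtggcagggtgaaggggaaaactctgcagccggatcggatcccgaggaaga

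Of the 6 Bdnf windows 1 held the core, starting 35 bases before the start site, and the Vgf window held the whole palindrome, starting 90 bases before it. The windows of Igf1, Ntf3 and Gfra1 held neither. Over all 33469 windows 21.2% held the core and 1.83% the palindrome. A match describes letters in these windows and says nothing of binding.

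FPKM values ran lower in the manipulated libraries across most genes. The median log2 fold change over the 10657 tested genes, manipulated minus untreated on the log2(FPKM + 1) scale, was -0.36, and 87% of genes lay below 0. Tested genes had a median of 3.98 to 5.50 FPKM in untreated and 2.75 to 4.07 FPKM in manipulated libraries, with the lowest value in manipulated replicate 6. Differences of the genes of the set are therefore also given with median-ratio scaling, which brings the median log2 fold change to 0.0035. Read totals are not in the tables, so the depth is unknown, and the interval that each table gives beside an FPKM value is the measure of precision within a library. Cortical glutamatergic markers were present. Slc17a7 averaged 88.9 ± 19.8 FPKM among untreated rats and 61.7 ± 11.9 FPKM among manipulated rats (SD, n = 3). Of the 10 markers of that list with rows Emx1 alone was at 0 in a library. Their presence cannot tell prefrontal cortex from other cortex, nor show that a section held cortex alone. Markers of thalamic and hypothalamic neurons were also present, and their list summed to 152 to 227 FPKM in untreated and 25.7 to 89.5 FPKM in manipulated rats.

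In levels per length, Ntrk2 stood highest with a mean of 27.9 FPKM over the 6 libraries, followed by Vgf (12.5), Ntrk3 (7.69), Gfra2 (3.31), Igf1 (1.12), Bdnf (1.01) and Ntf3 (0.391). The receptors Ntrk2, Ntrk3 and Gfra2 thus lay above the 3 ligands in every library. Ranges over libraries did not overlap between Ntrk2 and Vgf, Ntrk3 and Gfra2, or Gfra2 and Igf1. They overlapped between Vgf and Ntrk3, between Igf1 and Bdnf, and between Bdnf and Ntf3. Vgf was above Ntrk3, and Bdnf above Ntf3, within each of the 6 libraries, while Igf1 was above Bdnf in 4 of the 6 libraries.

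The ligands Bdnf, Igf1 and Ntf3 had lower FPKM in each manipulated rat than in any untreated rat, while the groups overlapped for Vgf and the 3 receptors. Of the 6 tested genes 0 passed limma at an adjusted p of 0.05, which 0.357% of all tested genes did (0.272% lower and 0.0845% higher in manipulated rats), and 0 passed with median-ratio scaling, where 0.291% did. In the fit as deposited 0 had an unadjusted p under 0.05, which 15.1% of tested genes had, 13.6% on the lower side. Without the filter on low values the unadjusted limma p was 0.0226 for Bdnf, 0.0211 for Igf1 and 0.0333 for Ntf3. The limma adjusted p was 0.372 for each, and the share of all genes under 0.05 in that fit was not counted. Its log2 fold changes of Bdnf and Igf1 were those of the filtered fit. Only the SEs were smaller, 0.197 against 0.281 for Bdnf and 0.186 against 0.263 for Igf1. With median-ratio scaling and no filter the unadjusted limma p was 0.0334 for Bdnf, 0.0292 for Igf1 and 0.0721 for Ntf3. The limma adjusted p was then 0.440, 0.426 and 0.515, and the share of all genes was not counted there either. As deposited, all 6 tested genes had a log2 fold change below 0, as 87% of tested genes did. With median-ratio scaling 2 of the 6 did, beside 49.4%. Groups that do not overlap with lower values in manipulated rats were found in 23.7% of tested genes, and in 22.3% of the 4190 genes with a mean of 0.1 to 1 FPKM, the range that holds Ntf3. Among the genes of the set this count was 2 of the 6 tested genes, and 3 of 7 with Ntf3. With median-ratio scaling it was 2 of 7, Bdnf and Igf1, beside 9.08% of tested genes and 10.3% of those low genes. The reverse pattern, higher in every manipulated rat, was found in 0 of the 7 genes as deposited, beside 1.08% of tested genes. With median-ratio scaling it was found in 2 of the 7, Ntrk2 and Gfra2, beside 10.6%. In bulk tissue, fewer cells of a type and less RNA per cell cannot be told apart.

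Bdnf (chromosome 3, 100768637 to 100819210, Rnor_6.0) had 2.00, 1.11 and 1.18 FPKM in untreated replicates 1, 2 and 3 and 0.498, 0.780 and 0.484 FPKM in manipulated replicates 4, 5 and 6. Untreated replicate 1 was the highest, and the groups stayed apart. The means were 1.43 ± 0.497 and 0.587 ± 0.167 FPKM (SD, n = 3), a ratio of 0.410. The log2 fold change was -0.60 (SE 0.28, 95% interval -1.24 to 0.03), with a limma adjusted p of 0.326. With median-ratio scaling the ratio of means was 0.572 and the log2 fold change -0.38 (SE 0.17), with an adjusted p of 0.462. As deposited, before any scaling, the intervals of single libraries stayed apart between groups. The lowest bound in untreated rats was 0.935 FPKM and the highest bound in manipulated rats 0.906 FPKM. Divided by the median-ratio factors of their libraries, the intervals of untreated replicate 3 and manipulated replicate 5 overlap. The row of Bdnf spanned the same 50574 bases in all 6 libraries. It held a transcript model assembled in that library in 4 of them and the reference annotation alone in manipulated replicates 5 and 6.

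Igf1 (chromosome 7, 28412198 to 28488380 in untreated replicate 1) measured 1.78, 1.42 and 1.40 FPKM in the untreated group against 0.895, 0.819 and 0.406 FPKM in the manipulated group. The untreated rats were close together, and manipulated replicate 6 was the lowest. The means were 1.53 ± 0.216 and 0.707 ± 0.263 FPKM (SD, n = 3), a ratio of 0.461, and the log2 fold change was -0.58 (SE 0.26, 95% interval -1.17 to 0.02; limma adjusted p 0.326). With median-ratio scaling the ratio was 0.611 and the log2 fold change -0.36 (SE 0.15), with an adjusted p of 0.448. The deposited intervals were wide in the library of manipulated replicate 4, from 0 to 2.05 FPKM, and in that of replicate 5, from 0 to 28.8 FPKM, so that single libraries fix the level of Igf1 less well than that of Bdnf.

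Ntf3 (chromosome 4, 158636884 to 158705886 in untreated replicate 1) measured 0.702, 0.472 and 0.412 FPKM in the untreated group against 0.350, 0.276 and 0.134 FPKM in the manipulated group. The groups stayed apart by a small step between untreated replicate 3 and manipulated replicate 4, whose deposited intervals overlapped. The means were 0.529 ± 0.153 and 0.253 ± 0.110 FPKM (SD, n = 3), a ratio of 0.479, with an exact two-sided permutation p of 0.1, the smallest that 3 against 3 can give. With median-ratio scaling the groups overlapped, at 0.329 FPKM in untreated replicate 3 and 0.369 FPKM in manipulated replicate 4, with a ratio of 0.636 and an exact permutation p of 0.2. In the limma fit without the filter on low values its log2 fold change was -0.29 (SE 0.10), with an adjusted p of 0.372.

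**Figure D1:**
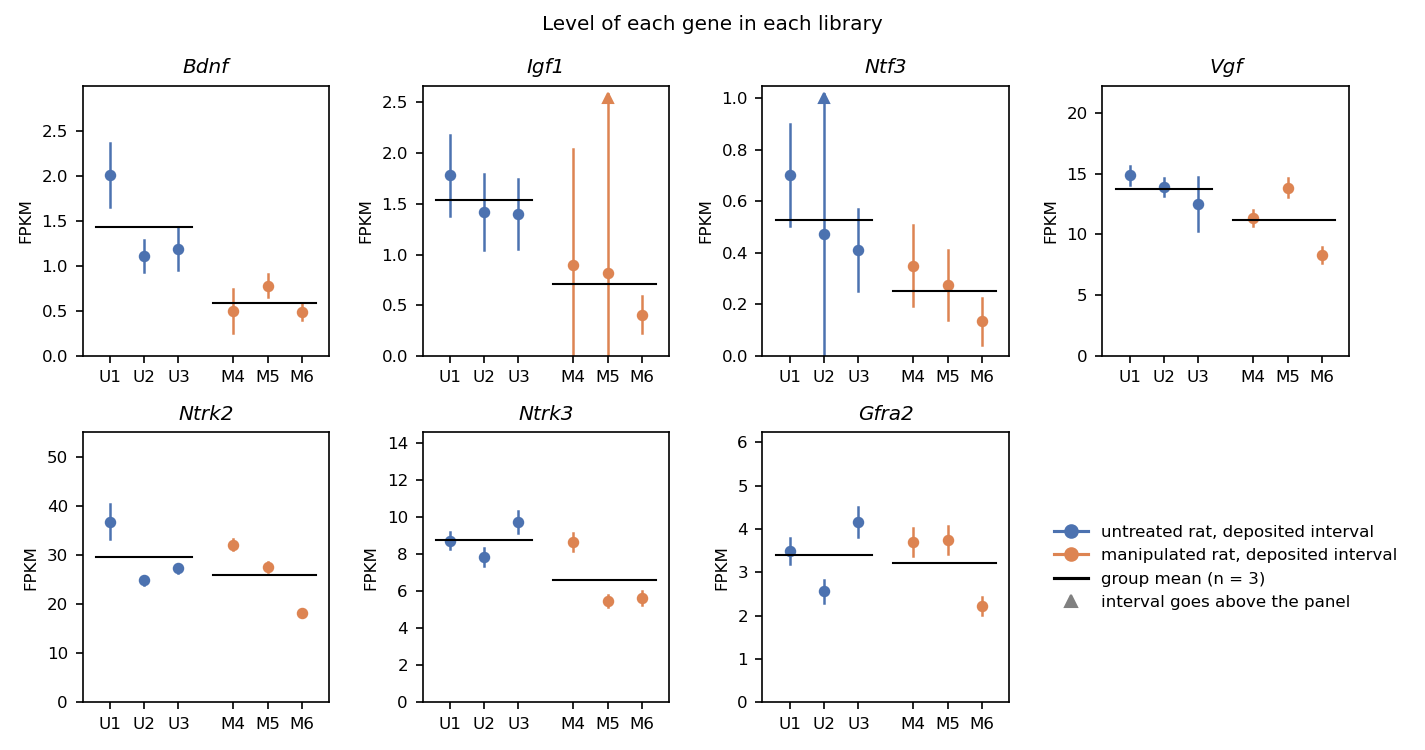
FPKM (vertical axes, starting at 0) of the 7 genes in untreated (U) and manipulated (M) replicates, with the interval deposited for each value as a whisker and the group mean as a line. For Bdnf, Igf1 and Ntf3 every manipulated point lies below every untreated point; the whiskers of Igf1 in M5, up to 28.8 FPKM, and of Ntf3 in U2, up to 2.64 FPKM, leave the panels.

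Vgf (chromosome 12, 22677186 to 22682255 in untreated replicate 1) measured 14.9, 13.9 and 12.5 FPKM in the untreated group against 11.3, 13.8 and 8.31 FPKM in the manipulated group. The groups overlapped, with manipulated replicate 5 inside the untreated range. The log2 fold change was -0.30 (SE 0.27, 95% interval -0.90 to 0.30), with a limma adjusted p of 0.460, and it was -0.12 without manipulated replicate 6. With median-ratio scaling it was 0.13 (SE 0.15), on the other side of 0. The assembled row of Vgf ran from 3783 to 7811 bases across libraries, and the shortest rows were those of untreated replicate 1 and manipulated replicate 4.

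Among the receptors, Ntrk2, which encodes TrkB (chromosome 17, 5930623 to 6244676 in untreated replicate 1), measured 36.9, 24.9 and 27.4 FPKM in the untreated group against 32.2, 27.6 and 18.2 FPKM in the manipulated group. Both groups spread widely and overlapped, with the highest value in untreated replicate 1 and the lowest in manipulated replicate 6. The log2 fold change was -0.20 (SE 0.31, 95% interval -0.91 to 0.51), with a limma adjusted p of 0.661, and 0.02 without manipulated replicate 6. With median-ratio scaling it was 0.25 (SE 0.14), and every manipulated rat then lay above every untreated rat, at 27.8 to 33.9 FPKM against 21.8 to 27.4 FPKM. The gene-level row does not separate the full-length kinase from the truncated TrkB that astrocytes make.

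Ntrk3, which encodes TrkC (chromosome 1, 139874162 to 140263071 in untreated replicate 1), measured 8.74, 7.86 and 9.76 FPKM in the untreated group against 8.66, 5.48 and 5.62 FPKM in the manipulated group. Manipulated replicate 4 lay with the untreated rats, and replicates 5 and 6 below them. The log2 fold change was -0.39 (SE 0.25, 95% interval -0.95 to 0.17), with a limma adjusted p of 0.367, and 0.02 (SE 0.19) with median-ratio scaling. Between 24 and 41 unnamed assembled loci lay within the span of Ntrk3 in untreated libraries and between 1 and 22 in manipulated libraries, and their fragments are not in the value of the gene. Their FPKM values summed to 39.0, 30.8 and 45.0 in untreated replicates 1, 2 and 3. In manipulated replicates 4, 5 and 6 the sums were 15.5, 0.609 and 13.7. Except in manipulated replicate 5, each sum was above the value of Ntrk3 itself. Within Ntrk2 such loci were few, 3 to 4 in untreated and 1 to 5 in manipulated libraries, but their FPKM values summed to 18.0, 16.0 and 10.2 in untreated replicates 1, 2 and 3 and to 6.33, 1.58 and 6.14 in manipulated replicates 4, 5 and 6. Over whole libraries the unnamed loci numbered 51528 to 83180 in untreated and 17102 to 36546 in manipulated rats, and their part in the levels of Ntrk2 and Ntrk3 was not tested.

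Gfra2, the receptor of neurturin (chromosome 15, 52556981 to 52648972 in untreated replicate 1), measured 3.49, 2.56 and 4.17 FPKM in the untreated group against 3.70, 3.74 and 2.22 FPKM in the manipulated group. The groups overlapped almost fully, and their means of 3.41 ± 0.809 and 3.22 ± 0.864 FPKM (SD, n = 3) were the closest of the 7 genes in ratio, at 0.945. The log2 fold change was -0.07 (SE 0.25, 95% interval -0.62 to 0.49), with a limma adjusted p of 0.850, and it was 0.12 without manipulated replicate 6 and 0.06 without untreated replicate 3. With median-ratio scaling it was 0.28 (SE 0.11), with an adjusted p of 0.423. Its unadjusted p of 0.0426 made it 1 of 6 under 0.05 with that scaling, beside 11.1% of tested genes, 6.71% on the higher side. Under that scaling the groups did not overlap, with 3.39 to 3.90 FPKM in manipulated rats and 2.59 to 3.33 FPKM in untreated rats. An unnamed locus lay within the span of Gfra2 in untreated replicate 2 (3.19 FPKM) and manipulated replicate 4 (0.672 FPKM) alone. Its part in the level of Gfra2 was not tested.

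**Figure D2:**
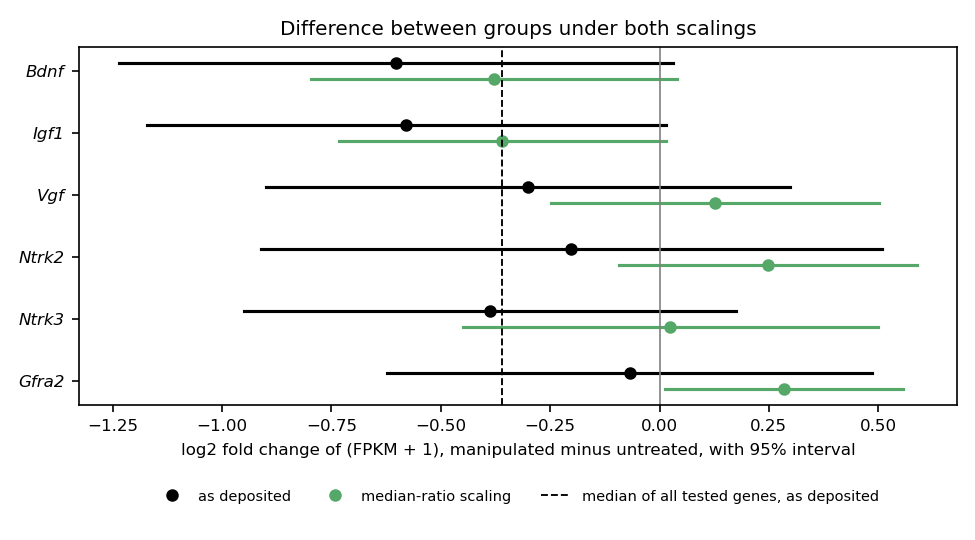
Log2 fold change of (FPKM + 1), manipulated minus untreated, of the 6 tested genes with its 95% interval from limma, as deposited (black) and with median-ratio scaling (green); the dashed line is the median of all tested genes as deposited, -0.36. Bdnf and Igf1 lie below 0 under both scalings with intervals that reach past 0, while the other 4 genes lie below 0 as deposited and above 0 after scaling.

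The ratio of 2 genes within a library is free of any scaling between libraries, and 10 such ratios were computed after the single values had been seen. Ratios of Bdnf, Igf1 and Ntf3 to Vgf or Ntrk2 thus restate in part the separation of those ligands. The share of all genes with such a separation of ratios was not counted. Bdnf was 5.44, 4.46 and 4.33 FPKM per 100 FPKM of its receptor gene Ntrk2 in untreated rats and 1.55, 2.82 and 2.65 in manipulated rats. The means were 4.74 ± 0.607 and 2.34 ± 0.690 (SD, n = 3), and the groups did not overlap, with an exact two-sided permutation p of 0.1, the smallest possible, and of 0.2 after Benjamini-Hochberg adjustment over the 10 ratios. The Ntrk2 values in this ratio leave out the unnamed loci within its span, whose summed FPKM was also lower in every manipulated rat. Against Vgf, likewise known to respond to CREB, Bdnf was 13.5, 7.99 and 9.48 per 100 FPKM in untreated rats and 4.39, 5.64 and 5.82 in manipulated rats.

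Igf1 against Vgf and Ntf3 against Vgf also gave groups that did not overlap, with means of 11.1 ± 0.892 and 6.24 ± 1.53 for Igf1 and of 3.81 ± 0.791 and 2.23 ± 0.767 for Ntf3 (SD, n = 3). The ratios of Ntf3 to its receptor gene Ntrk3 overlapped, at 8.03, 6.01 and 4.22 per 100 FPKM in untreated and 4.05, 5.03 and 2.38 in manipulated rats, with an exact permutation p of 0.2. As for Ntrk2, the Ntrk3 values leave out unnamed loci whose summed FPKM was lower in every manipulated rat. The ratios of Igf1 to Igf1r, at 55.1, 42.3 and 23.4 against 26.2, 31.9 and 18.8, overlapped too, with an exact permutation p of 0.3. Between the ligands the group means of the ratios lay close. Bdnf was 269 ± 29.9 and 262 ± 111 per 100 FPKM of Ntf3, and 91.8 ± 18.2 and 90.0 ± 32.0 per 100 FPKM of Igf1 (SD, n = 3). Single rats ran from 235 to 287 in untreated and 142 to 361 in manipulated rats against Ntf3. Against Igf1 they ran from 78.2 to 112 and from 55.7 to 119. Manipulated rats spread more widely than untreated rats in both of these ratios.

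**Figure D3:**
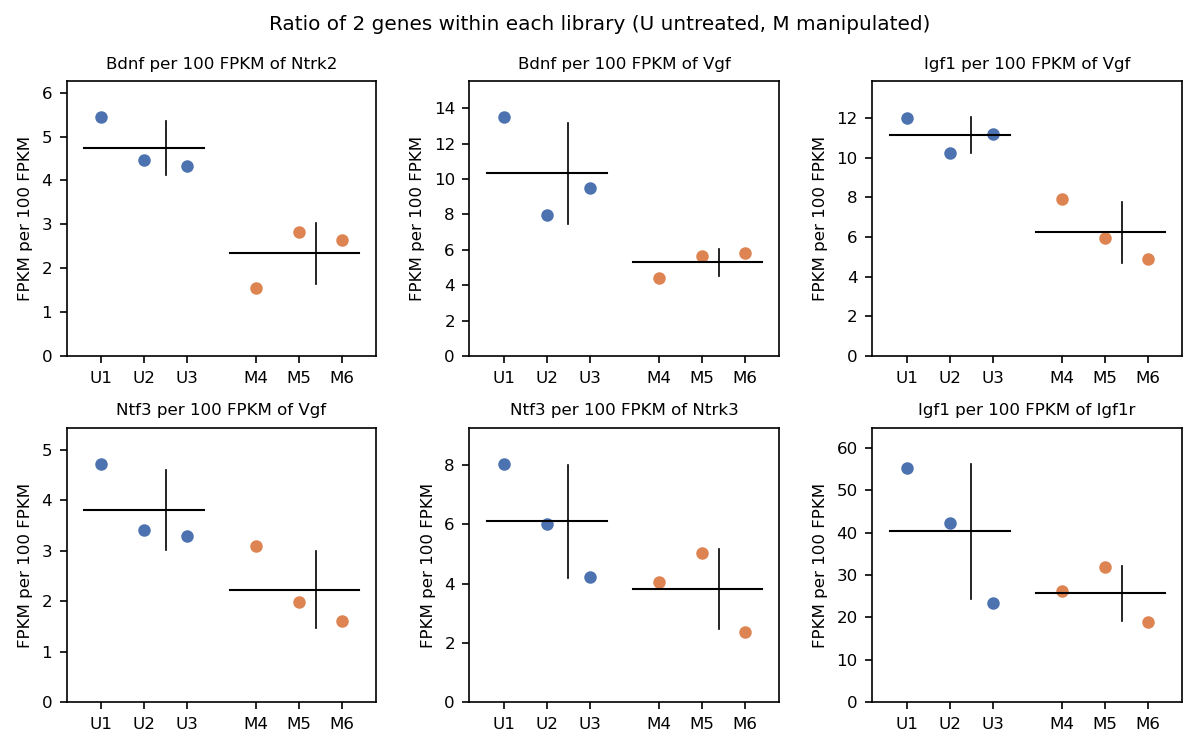
Level of a first gene per 100 FPKM of a second gene in the same library (vertical axes, starting at 0) for untreated (U) and manipulated (M) replicates, with group means as horizontal lines and SDs as vertical lines. Bdnf per 100 FPKM of Ntrk2 is 4.33 to 5.44 in untreated and 1.55 to 2.82 in manipulated rats, while the groups overlap for Ntf3 against Ntrk3 and Igf1 against Igf1r.

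Markers of other cells and regions also differed between these libraries. Of 12 tested thalamic and hypothalamic markers 6 fell by limma (5 with median-ratio scaling) and 11 were lower. The list summed to 152 to 227 FPKM in untreated against 25.7 to 89.5 FPKM in manipulated rats, with Pmch at 0 in 1 manipulated library, and to 113 to 192 and 26.0 to 137 FPKM with median-ratio scaling. Of 11 tested striatal markers all 11 were higher in manipulated rats under both scalings, 9 had an unadjusted p under 0.05, and 0 passed limma (1 with median-ratio scaling). Their list summed to 54.3 to 82.2 FPKM in untreated against 88.9 to 226 FPKM in manipulated rats. Rarb was at 0 in every untreated library and at 0.859 to 2.20 FPKM in manipulated libraries.

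The cortical glutamatergic list, whose cells make Bdnf, summed to 107 to 162 FPKM in untreated against 80.7 to 125 FPKM in manipulated rats, and to 103 to 121 and 101 to 126 FPKM with median-ratio scaling. The microglial list, from cells that make Igf1, summed to 79.0 to 104 and 52.3 to 84.5 FPKM, and to 74.9 to 83.3 and 71.2 to 85.4 FPKM when scaled. The markers of interneurons, which also make Igf1, did not share a direction. The list summed to 269 to 400 and 189 to 261 FPKM, and to 217 to 320 and 224 to 288 FPKM when scaled. As deposited, 7 of its 12 tested markers were higher in manipulated rats. Cck alone averaged 162 ± 31.5 FPKM among untreated rats and 47.7 ± 7.60 FPKM among manipulated rats (SD, n = 3), while the mean of Gad1 was 16.4 and 23.9 FPKM and that of Lamp5 7.96 and 18.1 FPKM. With median-ratio scaling 7 of the 12 were higher without overlap and 2, Cck and Calb2, lower. The hippocampal list summed to 31.0 to 60.6 FPKM in untreated and 21.0 to 29.8 FPKM in manipulated rats. With median-ratio scaling the sums of this list overlapped, at 24.8 to 45.0 and 27.7 to 32.1 FPKM. Its markers Prox1, C1ql2 and Neurod1 were lower without overlap under both scalings, with ratios of means of 0.343, 0.174 and 0.260 as deposited, whereas Dkk3 had a ratio of 1.10. No marker of the microglial, interneuron or hippocampal list was at 0.

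The choroid plexus list summed to 461 to 470 FPKM in untreated rats, to 240 FPKM in manipulated replicate 4 and to 1243 and 1008 FPKM in replicates 5 and 6, with Kcnj13 at 0 in the first 4 of these libraries. As deposited, Bdnf, Igf1 and Ntf3 lay below every untreated rat in each of replicates 4, 5 and 6. With median-ratio scaling Ntf3 in replicate 4 lay above untreated replicate 3, at 0.369 against 0.329 FPKM. The ependymal list summed to 4.99 to 8.61 FPKM in untreated against 9.77 to 10.2 FPKM in manipulated rats, and the olfactory bulb list to 2.54 to 3.58 and 5.93 to 7.56 FPKM, with Cfap126 and Tbx21 at 0 in some libraries. The part of all these cells and regions in the levels of the genes of the set was not tested.

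The other neurotrophin genes gave no further call. Of 13 further genes of neurotrophins, their receptors and the sortilin family, 10 had rows of their own, 6 were tested and 0 passed limma in either direction, with 1 at an unadjusted p under 0.05. Their median log2 fold change was -0.35, beside -0.36 for all genes. Sorcs3, a sortilin-like receptor, measured 3.63, 3.45 and 3.99 FPKM in the untreated group against 2.77, 1.35 and 2.51 FPKM in the manipulated group, with a limma adjusted p of 0.326. Kidins220, a scaffold of Trk receptors, had 21.6 ± 5.10 and 16.1 ± 4.66 FPKM, and Magee1 had 11.5 ± 1.87 and 8.82 ± 2.03 FPKM (SD, n = 3).

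Below the filter, and named after their values were seen, stood the low-affinity p75 receptor and a further ligand. Ngfr, which encodes p75, measured 0.364, 0.368 and 0.414 FPKM in the untreated group against 1.30, 0.834 and 0.781 FPKM in the manipulated group. It thus lay on the other side from Bdnf, Igf1 and Ntf3, with groups that did not overlap and an exact permutation p of 0.1, the smallest possible. Ntf4, the other ligand of TrkB, stayed under 0.1 FPKM in every library, and it too was higher in every manipulated rat, at 0.0624 to 0.0950 FPKM against 0.0152 to 0.0553 FPKM, with an exact permutation p of 0.1. Both genes were higher without overlap with median-ratio scaling as well. Among tested genes, which lie above the filter, 1.08% were higher without overlap as deposited and 10.6% with that scaling. The share among genes below the filter was not counted.

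In the GDNF family all 11 further genes had rows of their own and 5 were tested, of which 0 passed limma and 1 had an unadjusted p under 0.05, with a median log2 fold change of -0.38. That gene was Ret, the kinase that Gfra2 joins, with 2.03, 1.63 and 1.78 FPKM in untreated and 0.616, 0.538 and 0.586 FPKM in manipulated rats. The Ret groups were tight and far apart, at -0.83 on the log2 scale (SE 0.24, limma adjusted p 0.299), and they stayed apart with median-ratio scaling. Gfra2 per 100 FPKM of Ret was 172, 157 and 234 in untreated and 601, 695 and 380 in manipulated rats. The exact permutation test gave 0.1, its smallest p, or 0.2 after adjustment over the 10 ratios. The ratio was taken after the Ret values were seen and restates their separation. Nrtn, which encodes neurturin, had 1.99 ± 1.25 and 1.08 ± 0.277 FPKM (SD, n = 3). Sdc3, a syndecan that binds GDNF, ran from 12.1 to 16.9 FPKM in the untreated group and from 8.29 to 11.6 FPKM in the manipulated group. Gdnf itself was at 0.250 FPKM or less in every library.

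In the IGF axis 19 of 22 further genes had rows of their own and 11 were tested, of which 0 passed limma and 3 had an unadjusted p under 0.05. Their median log2 fold change was -0.15, and 4 of the 11 were higher. The 3 were carriers and their relatives, and they did not share a direction. Igfbp5 measured 6.92, 5.09 and 5.54 FPKM in the untreated group against 3.49, 3.59 and 2.48 FPKM in the manipulated group, with an adjusted p of 0.309. Igfbp4 had 2.15, 2.62 and 2.82 FPKM against 3.93, 5.32 and 3.20 FPKM, with an adjusted p of 0.326, and Igfbpl1, a relative of the binding proteins, 0.690, 0.582 and 0.497 FPKM against 1.52, 1.58 and 3.08 FPKM, with 0.309 by limma. In these 3 genes the groups did not overlap under either scaling. The receptor gene Igf1r had 4.19 ± 1.55 and 2.71 ± 0.644 FPKM (SD, n = 3) and overlapped.

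Of 21 genes of proneurotrophin processing and dense-core granules, 17 had rows of their own and 12 were tested, of which 0 passed limma and 0 had an unadjusted p under 0.05 in that fit. Their median log2 fold change was -0.30. C1qbp, a receptor proposed for a Vgf peptide, had 22.5 ± 2.99 and 14.2 ± 3.75 FPKM, the prohormone convertase gene Pcsk2 19.1 ± 2.84 and 12.8 ± 3.33 FPKM, and the amidating enzyme gene Pam 22.6 ± 5.07 and 15.2 ± 3.65 FPKM (SD, n = 3).

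Downstream of the receptors, 37 of 46 signalling genes were tested and 0 passed limma, with 7 at an unadjusted p under 0.05, 33 lower and their median at -0.35. The genes with the smallest p were the kinase gene Map2k2, at 18.6, 13.5 and 19.8 FPKM against 11.0, 9.79 and 9.28 FPKM, the neuronal adaptor gene Shc3, with 9.38 ± 1.69 and 5.32 ± 1.50 FPKM, and the small G protein gene Rap1a, with 7.02 ± 1.56 and 3.80 ± 1.37 FPKM (SD, n = 3). With median-ratio scaling 21 of the 37 were higher, and 0 passed.

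Of 28 CREB and activity-regulated genes 23 were tested, of which 0 passed limma and 4 had an unadjusted p under 0.05, with a median log2 fold change of -0.32. Nrn1, an activity-regulated growth-promoting protein, measured 36.6, 24.9 and 39.3 FPKM in the untreated group against 14.4, 19.1 and 10.8 FPKM in the manipulated group, with an adjusted p of 0.270. Dusp1, a phosphatase of MAP kinases, had 7.26 ± 1.33 and 3.59 ± 0.762 FPKM (SD, n = 3), with the same adjusted p of 0.270 by limma. Egr4, an immediate early transcription factor, lay the other way, at 1.91, 1.66 and 1.67 FPKM against 4.85, 2.92 and 2.38 FPKM, with 0.326 by limma. Genes of this list therefore lay on both sides, with Nrn1 lower and Egr4 higher in manipulated rats without overlap under either scaling.

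Of 38 other trophic factors and receptors of brain 24 were tested, and 0 passed limma or had an unadjusted p under 0.05 in that fit, with a median log2 fold change of -0.14. Fgf9 had 3.59 ± 0.853 and 2.13 ± 0.793 FPKM and Pdgfa 7.07 ± 2.42 and 4.40 ± 0.538 FPKM (SD, n = 3).

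Most of these named genes are given above as deposited. With median-ratio scaling the groups of Sorcs3, Pcsk2, Sdc3, Map2k2, Dusp1 and Fgf9, which did not overlap as deposited, overlapped. Those of C1qbp, Ret, Igfbp5, Shc3, Rap1a and Nrn1 stayed apart on the lower side. Kidins220, Magee1 and Sdc3 had log2 fold changes of 0.016, 0.066 and 0.047 with that scaling, on the other side of 0.

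**Figure D4:**
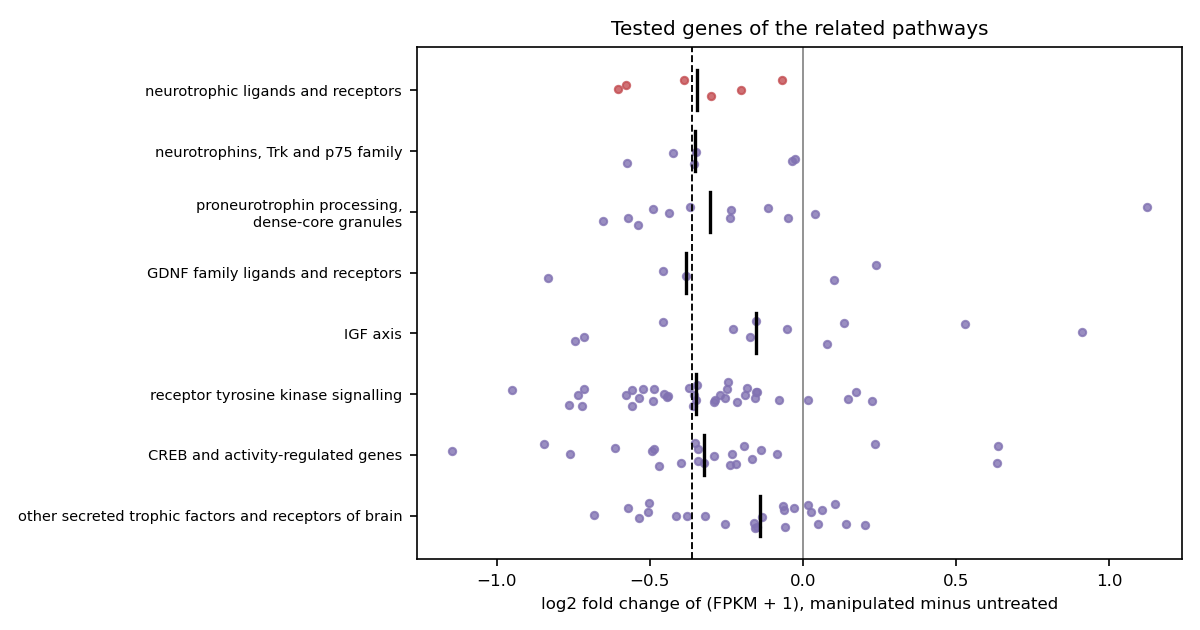
Log2 fold change of (FPKM + 1), manipulated minus untreated, of each tested gene (points) in the set and in 7 related lists, with the median of each list as a short line and the median of all tested genes, -0.36, as a dashed line. List medians lie between -0.38 and -0.14, and 0 genes of the lists shown passed limma.

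The genes whose log2(FPKM + 1) followed each member most closely over the 6 libraries were found by Pearson's r among 9039 tested genes, as a description. For Bdnf they were Tbc1d22a (r = 0.998) and Nudt14 (r = 0.998), and for Igf1 Grb14 (r = 0.998), an adaptor that inhibits insulin receptor signalling, and Mb21d2 (r = 0.998). For Ntrk2 they were Lonrf2 (r = 0.998) and Zfp827 (r = 0.997), for Vgf Ppig (r = 0.994) and Map7d2 (r = 0.990), for Ntrk3 Nsmf (r = 0.979) and Commd8 (r = 0.976), and for Gfra2 Pip4k2c (r = 0.984) and Rassf5 (r = 0.984). Spearman's rho of these pairs was 0.83 to 1.00. The values share library depth and the difference between libraries that touches most genes, and the 6 points were compared with every one of those genes.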

How the data were processed

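RNA of 6 rats, 3 in each group, was sequenced as 1 library per rat. The authors deposited FPKM values per gene, with STAR 2.7.3a, Cufflinks and the build Rnor_6.0 named in the submitters' processing notes, with an interval and a status for each value, per the file headers. The annotation release, strand setting and read totals: not given in the sources used here. Deposited starts count from 0, as 274 of 282 microRNA rows matched their RefSeq hairpin length that way, and are printed counted from 1.

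Rows were summed per symbol. Of 30076 symbols, 3254 that shared a row, 144 at several places, 32 missing from a library and 5 with a failed estimate were left out, and 10657 of the 26641 kept had a mean of at least 1 FPKM. On these, limma 3.58.1 in R 4.3.3 compared the groups on the log2(FPKM + 1) scale, with a trended prior variance and the group as its single term. Its two-sided p-values were adjusted by Benjamini-Hochberg over the 10657 symbols, with a threshold of 0.05. Log2 fold changes understate the change of low genes. Single values were compared by an exact permutation test over the 10 splits into 3 and 3. On simulated data with 10657 genes, limma recovered 16% of the genes given a log2 change of 1 and 77.2% of those given 2.

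The set and the lists were chosen with earlier results of these data known. Beside the 8 genes, the text names the 3 tested genes of each list with the smallest p and the 2 genes most like each tested member, clone, locus and microRNA names left aside. Others were named after their values were seen. A few genes that these rules name are not reported here. Figures were made with matplotlib 3.10.9. Alternatives covered the pseudocount, filter, scaling, variance model, library weights, joined rows and leaving out each library. The ratios within a library, and scaling together with no filter, were added after the data were seen.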

Additional observations from a re-analysis of the deposited data

How the results depend on the processing

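Of the 6 tested genes none passed the adjusted p in any of the 18 alternatives that held it, and Ntf3 did not in the 2 without a filter, the only ones that held it in a fit. Bdnf kept its direction in all 17 that held it, with log2 fold changes of -1.25 to -0.38 and adjusted p of 0.0689 (library weights) to 0.633, and so did Igf1, with -1.18 to -0.36 and adjusted p of 0.108 to 0.633. A mean of at least 5 FPKM leaves out Bdnf, Igf1 and Gfra2. The others turned with scaling. With median-ratio scaling, and the same with no filter, log2 fold changes were 0.28 for Gfra2, 0.25 for Ntrk2, 0.025 for Ntrk3 and 0.13 for Vgf, and with upper-quartile scaling 0.26, 0.22, 8.13e-05 and 0.10. Library weights gave 0.061 for Ntrk2. Leaving out 1 library gave -0.21 to 0.12 for Gfra2 and -0.37 to 0.025 for Ntrk2. Over all genes, 9 higher and 29 lower calls became 5 and 15 with no filter, 17 and 67 with a robust prior, 135 and 805 with library weights, 5 and 19 with joined rows kept, and 9 to 18 and 17 to 38 without 1 library. Without untreated replicate 2 there were 18 higher calls, without manipulated replicate 4 there were 16 and without replicate 6 there were 18, and without replicate 5 there were 17 lower calls. The causes were not tested. No paired analysis was possible because the groups share no replicate number. Precision is limited by 3 rats in each group and, for Igf1 and Ntf3, by wide intervals within libraries.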
